A study of Mus musculus with 120 samples.

Results

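The cells described here are the 10 mouse group 2 innate lymphoid cells (mILC2s) that were recovered before any stimulus was added, out of 120 single cells in the series. They were chosen by their source label, pre-stimulation, and comprise 5 cells from the experiment indexed on IL-5 secretion and 5 from the experiment indexed on IL-13 secretion. The index is the cytokine whose secretion was followed by live imaging, so for a resting cell it names only the experiment it came from. The other 110 cells had been incubated with IL-2 and IL-33 and were taken 30, 60 or 90 min after the onset of secretion, or later as activated (secreting) or silent (not secreting) cells, with 11 cells per state and index. All cells were lineage-negative, c-Kit+ and Sca-1+ lymphocytes sorted from the pooled mesenteric fat of 20 wildtype C57BL/6 mice, with no genetic modification. Per the study's methods the sorted cells were expanded in culture with IL-2 before the experiments, so a resting cell here is an IL-2-grown cell that had not met IL-33 in the assay, and not a cell fresh from tissue. Expression was measured by 3' end sequencing of 1 library per cell, and levels are given as CPM, reads per 1000000 gene reads, which are not divided by gene length because reads come from the 3' end.

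ILC2s are tissue-resident lymphocytes without rearranged antigen receptors. The transcription factors GATA3 and RORα specify them, and they sense the alarmin IL-33 through its receptor ST2, the product of Il1rl1. On stimulation they secrete the type 2 cytokines IL-5 and IL-13, which act on eosinophils and on epithelium, respectively.

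The resting cells held 133373 to 306589 gene reads each, 2176566 in all, with 1212183 in the IL5 cells and 964383 in the IL13 cells. No 2 of them had identical counts, and the 6 cells of the series with fewer than 84667 reads were all stimulated cells. Each index had 1 title date before stimulation, so index and date cannot be told apart. The labels do not give library pools, so whether pool coincided with index is not known. Which animal or culture a cell came from is not labelled. The cells of a group therefore count as 1 sample, no test was made, and intervals are exact 95% intervals that treat each read as an independent count. The reads carry no molecular identifiers, so copies made in amplification are counted too. The intervals cover neither this nor the spread between cells, and are therefore too narrow. One resting cell, IL13 replicate 1, stood apart in genes of the cell cycle, and results that rest on it are given with and without it.

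Resting cells carried the transcripts that define ILC2s. Gata3 (ENSMUSG00000015619, GRCm38 chromosome 2, 9857078 to 9890034, minus strand) was read in 10 of 10 cells at 1402 CPM of the summed reads (1352 to 1452), with a lowest cell of 329, a median of 1289 and a highest of 3741 CPM. Il1rl1, the IL-33 receptor gene, was read in 9 of 10 cells at 1231 CPM (1185 to 1278), with 0 reads in IL13 replicate 4 and 2968 CPM in the highest cell. Klf6, a zinc finger transcription factor, was read in 8 cells at 281 CPM (259 to 304). Rora was read in 7 cells at 146 CPM (130 to 163), and its highest cell stood at 478 CPM. Gata3 and Il1rl1 were thus found in nearly every cell, while Rora and Klf6 had 0 reads in some.

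Further members of the identity list likewise divided into genes read in every cell and genes read in part of the cells. Of its 21 genes, 20 had a read, 14 were read in at least 5 cells and 5 in all 10. Those 5 were Gata3, Id2, Klrg1, Ptprc and Cxcr6. Id2, the inhibitor of E proteins that all innate lymphoid cells need, stood at 961 CPM (417 to 1709 over cells). Cxcr6, a chemokine receptor, stood at 1072 CPM (330 to 2054 over cells), and Klrg1, an inhibitory receptor of mature ILC2s, at 755 CPM (7.50 to 1287 over cells). Areg, which encodes the repair factor amphiregulin, had 0 reads in all 10 cells, which allows up to 1.38 CPM. The sort markers were present as transcripts: Ly6a, which encodes Sca-1, was read in 10 cells at 5923 CPM (1497 to 9372 over cells), and Kit in 9 cells at 439 CPM (0 to 2598 over cells).

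Most markers of other cell types had 0 reads. The NK and ILC1 list (8 genes), the ILC3 list (6 genes measured) and the myeloid list (12 genes) had 0 reads in every resting cell. Of 16 T cell genes, 4 had reads. Cd3g was read in 6 cells and reached 1117 reads in IL5 replicate 2, 993 in IL13 replicate 1 and 332 in IL5 replicate 3, against at most 91 in any of the others. Trbc2, the constant region of the T cell receptor β chain, was read in 9 cells, Trbc1 in 2 cells and the adaptor gene Lat in 8, whereas Cd3d, Cd3e, Cd247, Cd4, Cd8a and Trac had 0 reads. The summed level of the T cell list ran from 69.5 to 4920 CPM over single resting cells and from 0 to 5530 CPM over the 104 stimulated cells above the depth limit. Over groups, it was 2085 CPM in resting cells and 483 to 1688 CPM in stimulated groups, and 1723 CPM in resting cells without IL13 replicate 1. The B cell list was represented by Ighm alone, at 253 CPM in 7 cells, with Cd79a and Igkc at 0. The mast cell and basophil list was represented by Fcer1a in 3 cells and Cd200r3 in 5, with Cpa3, Mcpt8 and Gata2 at 0. Of the fibroblast, endothelial and adipocyte list only Pecam1 had reads, 7 in all, and of the erythroid list Hba-a1 and Hba-a2 had 58 and 7 reads.

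**Figure D1:**
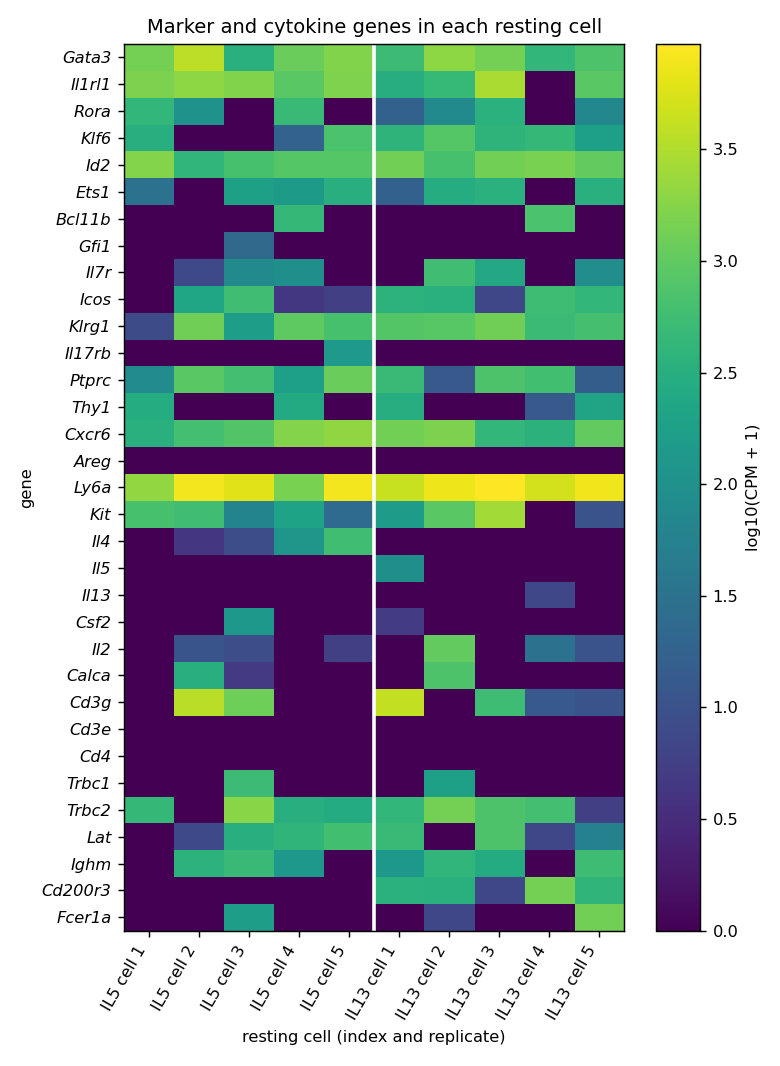
Levels of identity, sort, cytokine and other cell type genes (rows) in each of the 10 resting cells (columns, IL5 index left and IL13 index right of the white line), as log10(CPM + 1) of the cell's own reads. Gata3, Id2, Cxcr6 and Ly6a are read in all 10 cells, Il13 holds 1 read in 1 cell, and Cd3e and Cd4 hold none.

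The most abundant transcript of resting cells was Tmsb4x (ENSMUSG00000049775, GRCm38 chromosome X, 167207093 to 167209315, minus strand), which encodes the actin-sequestering peptide thymosin β4. It took 3.61% of all gene reads, at 36099 CPM (35847 to 36352). Its lowest cell, IL13 replicate 3, stood at 16468 CPM, the median at 31203 and the highest, IL13 replicate 1, at 70885. B2m, the light chain of MHC class I, followed at 16314 CPM (9743 to 30004 over cells). The mitochondrial ribosomal RNA mt-Rnr2 stood at 10996 CPM, Rps27 at 10689 and the nuclear non-coding RNA Malat1 at 10596. Malat1 varied more than its neighbours in rank, from 1760 CPM in IL13 replicate 4 to 21256 in IL5 replicate 2. The rest of the 20 most abundant genes were 8 further ribosomal protein genes (among them Rpl37a, Rpl32, Rpl13, Rps19, Rpl41, Rpl37 and Rpl36), the ferritin gene Fth1, the Sca-1 gene Ly6a and its relative Ly6e, the prolyl isomerase gene Ppia, the profilin gene Pfn1, Cd52 and Itm2b.

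These 20 genes held 17.3% of the reads, the top 100 held 38.1% and the top 1000 held 75.8%. Over cells, the share of the top 100 ran from 32.4% to 43.8%. The 84 ribosomal protein genes together held 20.9% of the reads of resting cells, from 10.0% in IL13 replicate 1 to 28.0% in IL13 replicate 2. The stimulated cells gave 16.8% in all and 14.5% to 19.1% by group. Ribosomal protein genes have many near-identical pseudogenes, and 28.0% of the tallied alignments of resting cells were set aside as not unique, so these levels are uncertain. The 37 mitochondrial genes held 2.14%, against 1.82% in stimulated cells and 1.43% to 2.63% by stimulated group, a range that holds the resting value.

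**Figure D2:**
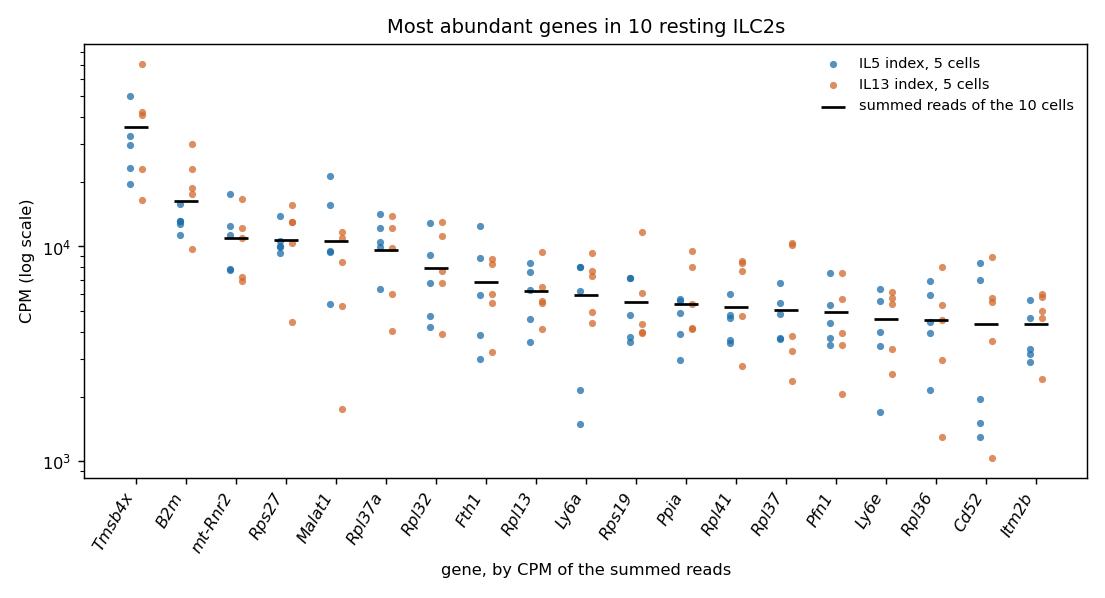
CPM (log scale) of genes among the 20 most abundant in each of 10 resting cells, with IL5 cells in blue and IL13 cells in orange; the black bar is the CPM of the summed reads. Tmsb4x leads at 36099 CPM with cells from 16468 to 70885, and Malat1 and Cd52 spread more widely than the ribosomal protein genes.

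A small set of genes was shared by every cell. Of 7597 genes with a read in any resting cell, 351 were read in all 10 and 2518 in 1 cell alone. The 351 shared genes held 52.9% of all reads and included 77 of the 84 ribosomal protein genes and 10 mitochondrial genes. With at least 5 reads asked for in every cell, 206 genes remained in the shared set. After thinning each cell to 100000 gene reads, 285 were read in all 10. The shared genes were also widely read after stimulation: 286 of the 351 had a read in at least 90% of the 104 stimulated cells above the depth limit. Beside the ribosomal set, the shared genes that the lists name included Actb (4250 CPM), Pfn1 (4972 CPM), H2-K1 (2748 CPM), the glycolytic gene Aldoa (1037 CPM) and Il2rg, the common γ chain of the IL-2 receptor (1252 CPM).

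Cells differed strongly outside this shared set. Over the 2834 genes with a mean over the 10 cells of at least 50 CPM, the median SD over cells of log2(CPM + 1) was 3.60. The spread was smallest among the most abundant genes and did not fall steadily with level. Among 167 genes of 1000 CPM or more the median SD was 0.88 and 92.8% were read in all 10 cells. From 200 to 1000 CPM (650 genes) the median SD was 3.84 with a median of 8 cells, and from 50 to 200 CPM (2017 genes) it was 3.61 with a median of 4 cells. Below that minimum, from 10 to 50 CPM (2641 genes), it was 2.65 with a median of 2 cells. A level of 50 CPM corresponds to about 10.8 reads in the median resting cell. Per the study's methods a spike-in control RNA (ERCC) was added to each sample, but the deposited counts hold no rows for it. How much of a cell's RNA was captured was therefore not measured here, so a gene at 0 is not shown to be unexpressed. The spread in stimulated groups was of like size, with medians of 3.19 to 3.65 by group against 3.80 for IL5 and 3.92 for IL13 resting cells, which have fewer cells per group.

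The smallest spread was that of Myl6, a myosin light chain gene, which had an SD of 0.36 and ran from 2281 to 5166 CPM over cells. The next 9 were the ribosomal protein genes Rps29, Rpl35, Rps25, Rps27rt and Rpl13, the proteasome subunit gene Sem1, the translation factor gene Eif1, Tpt1 and the actin-severing cofilin gene Cfl1, with SDs of 0.39 to 0.45. At the other end, 10 genes read in at least 3 cells had SDs of 4.87 to 5.32. The largest was 2410015M20Rik, with 536, 251, 205, 183 and 145 reads in 5 cells and 0 in the other 5. Cd3g followed, and then Eif3m (a subunit of translation factor eIF3), Manf, Lsm5, Rex1bd, Tmem176a, Scp2, Lsm4 and Mpc2. Eif3m had reads in 5 cells, with 601 in IL5 replicate 2 as the highest. Of these 10 genes, all but Cd3g were read in 67.3% to 89.1% of the stimulated cells, and Cd3g in 18.2%.

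**Figure D3:**
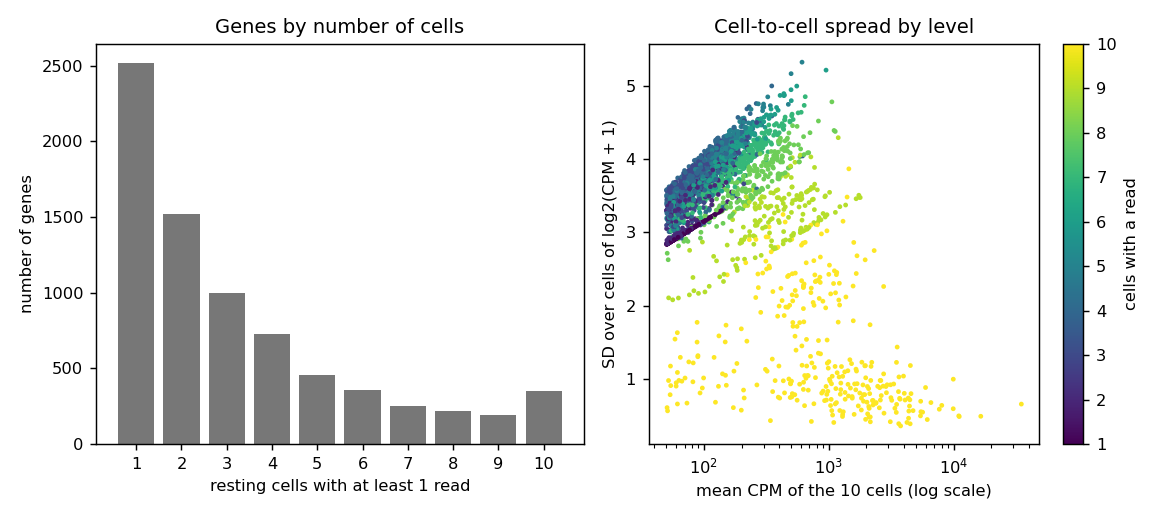
Left, number of genes by how many of the 10 resting cells hold at least 1 read (genes without a read not drawn). Right, SD over the 10 cells of log2(CPM + 1) against mean CPM (log scale) for 2834 genes, coloured by the number of cells with a read: genes read in all 10 cells lie low at the right, and genes read in part of the cells form bands from about 2 to 5.

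Many genes were nearly private to 1 cell. Of the genes with a mean of at least 50 CPM, 286 had at least 90% of their reads in 1 cell, from 9 such genes in IL5 replicate 3 to 52 in IL5 replicate 5. The 5 with the most reads were Stmn1 (1505 of 1514 reads in IL13 replicate 1), the histone gene Hist1h4d (565 of 615 in IL13 replicate 1), the adaptor gene Sla (543 of 592 in IL5 replicate 2), Tor1b (562 of 568 in IL5 replicate 5) and Tm9sf4 (437 of 448 in IL5 replicate 5). Small numbers of reads of such genes occurred more often in cells of the same index. A gene held by 1 cell had 1 to 9 reads in 15.9% of the gene and cell pairs within the index (182 of 1144) and in 3.43% of the pairs in the other index (49 of 1430). The source of these reads was not tested.

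IL13 replicate 1 differed from every other cell in genes of the cell cycle. Of 45 genes on the S phase and G2/M lists, 42 had a read in this cell, at a summed 32068 CPM. The other 9 resting cells had 3 to 11 of these genes and 741 to 2912 CPM. The 104 stimulated cells above the depth limit had at most 11 of them and at most 3540 CPM. Its reads covered S phase genes such as Pcna (242 reads), which encodes the replication clamp, Rrm2 (213 reads, 0 in the other 9 cells), a subunit of ribonucleotide reductase, and Tyms (225 reads). They also covered mitotic genes: Birc5 (356 reads), which encodes survivin, Top2a (267 reads), which encodes the topoisomerase that untangles chromosomes, Ube2c (215 reads), Ccnb2 (55 reads) and Cdk1 (26 reads). Hmgb2, a chromatin protein gene, had 2604 reads in it and at most 325 in any other resting cell. Single genes of the lists were also well read elsewhere: Mki67, the proliferation antigen, had 202 reads in IL5 replicate 5 and 92 in IL13 replicate 1, Tyms had 306 reads in IL5 replicate 3, and Tpx2 had 77 in IL5 replicate 2.

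The same cell was at the edge of the range in other measures. After thinning to 100000 reads it had 3896 genes, against 1425 to 2492 in the other 9, and its ribosomal protein share of 10.0% was the lowest of the 10, the next being 16.6%. Whether the library holds more than 1 cell was not tested. At the other edge, IL13 replicate 4 had the fewest genes (1425), the lowest Malat1 level and 0 reads of Neat1, Xist, Il1rl1, Rora and Kit. The nuclear RNA Xist was read in the other 9 cells, with 87 to 742 reads. The share of alignments outside annotated genes was 2.49% in IL13 replicate 4 and 5.00% to 14.4% in the others.

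**Figure D4:**
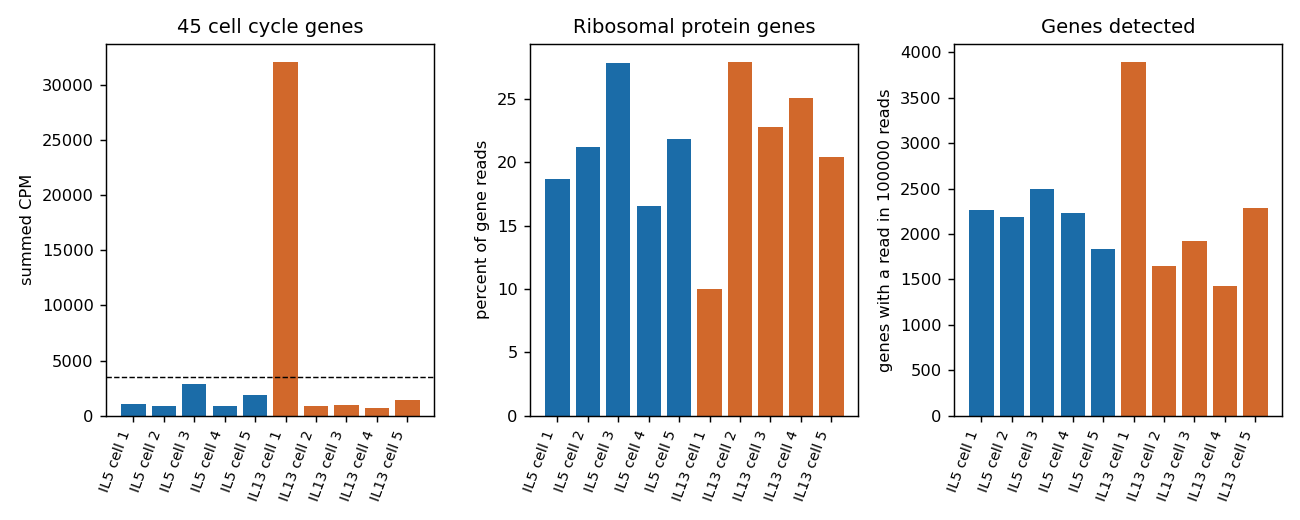
Summed CPM of 45 cell cycle genes, percent of gene reads in ribosomal protein genes, and genes with a read after thinning to 100000 reads, 1 bar per resting cell (IL5 blue, IL13 orange). The dashed line is the highest of 104 stimulated cells, 3540 CPM; IL13 replicate 1 stands at 32068 CPM, with 10.0% ribosomal protein reads and 3896 genes.

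The 5 IL5 cells and the 5 IL13 cells were then set against each other, since the study treats both as the starting state. Abundant genes had like levels in both. For the 167 genes of 1000 CPM or more, the median absolute log2 ratio of the summed CPM was 0.33, 1 gene (0.599%) differed at least 4-fold, and Pearson's r across genes was 0.82. For genes of 200 to 1000 CPM the median absolute log2 ratio was 0.73 and 13.4% differed 4-fold, with r of 0.035. For 50 to 200 CPM these were 1.76, 46.1% and -0.39, and for 10 to 50 CPM 3.45, 72.3% and -0.64. Over the 2844 genes whose summed CPM of the IL5 and of the IL13 cells averaged at least 50, r was 0.14, and it was 0.056 without IL13 replicate 1, 0.077 without IL5 replicate 4, 0.085 without IL5 replicate 3 and 0.094 without IL13 replicate 5. These r are over genes that share libraries and were binned or kept by the mean level of the same cells. Within a narrow range of that mean, a gene high in 1 index must be low in the other. This by itself lowers r and can make it negative, so low or negative r are not read as disagreement of the indexes. At the level of single cells, pairs within an index had r from 0.24 to 0.42 (median 0.33, 20 pairs) and pairs across indexes 0.23 to 0.42 (median 0.28, 25 pairs) over 2834 genes. The ranges of within-index and between-index pairs overlapped almost fully, and over the 167 most abundant genes the medians stood the other way, at 0.30 and 0.36.

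Of 3897 genes with at least 50 CPM in either index, 1008 (25.9%) were at least 4-fold higher in IL5 cells and 863 (22.1%) in IL13 cells. With TMM factors these were 942 and 937, and with DESeq2 factors 936 and 941, so neither index is called higher on balance. Without IL13 replicate 1 the counts were 1248 and 895. Most of these differences rested on part of the cells. In 13 genes (0.334%) every IL5 cell stood above every IL13 cell, and in 5 genes (0.128%) the reverse held. With at least 5 reads asked for in each of the 5 higher cells, a limit chosen after the values were seen, 2 and 3 genes were left. How many of 3897 genes would separate by chance was not worked out, so these counts are not read as a difference between the indexes. The genes named below were chosen for this separation in the same values, so their ratios describe these cells only.

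**Figure D5:**
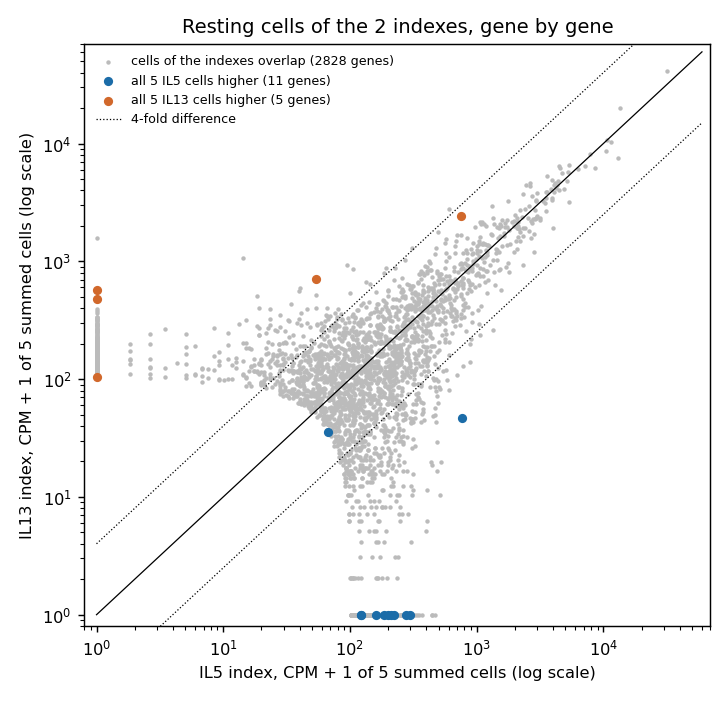
CPM + 1 of the summed IL5 cells against that of the summed IL13 cells (log scales) for 2844 genes whose average of both values is at least 50 CPM; dotted lines mark 4-fold. Coloured points are genes whose 5 cells of one index all lie above the 5 of the other, 11 higher in IL5 (of 13 in all) and 5 higher in IL13; the cloud narrows toward abundant genes.

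The 5 genes higher in IL13 cells were Atp5mpl, Cox6b1, Sdr39u1, Cnn2 and Cd200r3. Atp5mpl, a small subunit of ATP synthase, had 175, 41, 158, 118 and 194 reads in the IL13 cells and 16, 0, 0, 0 and 48 in the IL5 cells. All IL13 cells stood above all IL5 cells in CPM, and the log2 ratio of IL5 to IL13 was -3.75 (-4.14 to -3.38), and -5.47 without IL5 replicate 5. Cox6b1, a subunit of cytochrome c oxidase, had 658, 334, 321, 484 and 556 reads in the IL13 cells against 36, 1, 385, 176 and 316 in the IL5 cells, a log2 ratio of -1.69 (-1.81 to -1.58), which is under 4-fold, and -2.13 without IL5 replicate 3, which is over it. Sdr39u1 had 7, 24, 26, 26 and 16 reads in the IL13 cells and 0 in the IL5 cells, at least 41.5-fold higher against a floor of 3 reads over the group.

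Cnn2 and Cd200r3 were also separate, but each with 1 cell at 1 read. Cnn2, which encodes the actin-binding calponin 2, had 39, 1, 151, 159 and 200 reads in the IL13 cells and 0 in the IL5 cells, at least 230-fold higher. Cd200r3, an activating receptor gene of basophils and mast cells, had 85, 55, 1, 235 and 85 reads against 0, at least 193-fold higher and at least 115-fold without IL13 replicate 4, and Fcer1a, the other gene of the mast cell and basophil list with reads, stood at 37.1 CPM in IL5 and 301 CPM in IL13 cells. The list as a whole stood at 37.1 and 779 CPM, with its other 9 genes at 0, and the part of such cells was not tested.

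Among the genes higher in IL5 cells, Eif3f, a subunit of translation factor eIF3, and the pseudogene Rpl18-ps1 had at least 5 reads in every IL5 cell, and are named here after their values were seen. Eif3f had 77, 128, 550, 105 and 63 reads in the IL5 cells and 0, 0, 0, 0 and 44 in the IL13 cells, a log2 ratio of 4.06 (3.62 to 4.53), which was 3.11 to 7.57 on leaving out each cell in turn. Rpl18-ps1 had 80 and 33 reads, a log2 ratio of 0.95 (0.35 to 1.58), and may share reads with Rpl18. The 6 genes that the size rule names had 0 reads in the IL13 cells: Mdfic (98, 131, 1, 7 and 125 reads in the IL5 cells, at least 96.0-fold higher), Znrf1 (98, 146, 19, 72 and 1 reads), Tspyl1, Ifitm10, Tada1 and Tdrd3. Each of these 6 had at least 1 IL5 cell at 4 reads or fewer. For 9 of the 13 genes higher in IL5 and 2 of the 5 higher in IL13, a cell at 1 read was needed for the separation, and 1 to 9 reads recurred in cells of the same index as shown above. The part of these reads in the separation was not tested.

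Genes that mark ILC2s were compared between the indexes in the same way. Of the 15 identity genes with at least 50 CPM in either index, 0 differed 4-fold, beside 25.9% and 22.1% of all 3897 genes, a share that falls with abundance as given above. The median log2 ratio was -0.18 against 0.16. Without IL13 replicate 1, 2 were 4-fold higher in IL5 and 1 in IL13. Gata3 had 187, 1147, 87, 345 and 358 reads in the IL5 cells and 129, 340, 231, 72 and 155 in the IL13 cells, a log2 ratio of 0.87, with overlapping cells. Of the cell cycle lists, 9 of 11 S phase and 11 of 15 G2/M genes were 4-fold higher in IL13 cells (22.1% over all genes) and 0 in IL5 cells (25.9%). Without IL13 replicate 1, 3 S phase and 2 G2/M genes were higher in IL13 cells and 2 and 4 in IL5 cells. Neat1, a nuclear non-coding RNA, stood at 773 CPM in the IL5 cells (56, 496, 81, 127 and 177 reads) and at 128 CPM in the IL13 cells (0, 26, 97, 0 and 0 reads), with overlapping cells.

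Resting cells held almost no transcripts of the cytokines that define activation. Il13, the IL-13 gene, had 1 read in the 10 cells, in IL13 replicate 4, or 0.459 CPM (0.0116 to 2.56). Il5 had 23 reads, all in IL13 replicate 1, or 10.6 CPM. Csf2, the GM-CSF gene, had 34 reads in IL5 replicate 3 and 1 in IL13 replicate 1. Il9 and Il6 had 0 reads, which allows up to 1.38 CPM. Il4 was the exception among type 2 cytokines: it had 121 reads in IL5 replicate 5, 37 in replicate 4, 2 in replicate 3, 1 in replicate 2 and 0 in the remaining 6 cells. Il2 had 175 reads in IL13 replicate 2 and 13 in 5 other cells, and Calca, the gene of the neuropeptide CGRP, had 125 reads in IL13 replicate 2 and 94 in IL5 replicate 2. Most reads of each of these cytokine genes thus lay in 1 or 2 cells.

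Il4, Il5 and Il13 lie together on chromosome 11. The 120 bases before the start of each are printed here because the same 3 genes ran from 1 read to 161 reads in these cells. They come from the RefSeq table for GRCm38.p6, 5' to 3' on the gene's strand, at chr11:53618666-53618785 for Il4 (minus strand), chr11:53720674-53720793 for Il5 (plus strand) and chr11:53634703-53634822 for Il13 (minus strand). Capitals mark a match, searched on both strands, to AGATAA, which is 1 of several forms of the GATA motif; the other forms were not searched.
Il4: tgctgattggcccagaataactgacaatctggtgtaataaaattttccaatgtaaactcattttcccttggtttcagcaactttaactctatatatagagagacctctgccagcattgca
Il5: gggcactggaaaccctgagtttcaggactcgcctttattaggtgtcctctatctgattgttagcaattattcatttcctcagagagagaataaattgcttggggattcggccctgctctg
Il13: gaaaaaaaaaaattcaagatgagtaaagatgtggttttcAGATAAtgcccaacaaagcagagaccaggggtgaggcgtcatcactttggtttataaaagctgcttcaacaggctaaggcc
Within 250 bases before the start, Il13 had 1 match to AGATAA, and Il4 and Il5 had 0. The motif occurred in 9.99% of 32851 promoter windows of this length. A match describes the letters only, and no match says only that they are not in this window.

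Resting cells were last compared with the 110 stimulated cells. Of 3584 genes with at least 50 CPM in either group, 532 (14.8%) were at least 4-fold higher in resting cells and 472 (13.2%) at least 4-fold lower. The median log2 ratio of resting to stimulated cells over these genes was 0.21, and scaling by TMM or DESeq2 factors lowers every ratio by 0.29 or 0.25. The balance of the counts turned with the scaling, to 369 higher and 618 lower with TMM and 392 and 602 with DESeq2 factors, so no majority direction is given. Libraries were pooled 5 or 6 at a time and the labels do not give the pools, so whether pool coincided with state is not known. Set against the 50 stimulated cells of the same 2 title dates, the counts were 550 and 485.

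Cytokine genes were lower in resting cells. Of 11 cytokine genes with enough reads, 9 were at least 4-fold lower in resting cells (13.2% over all genes), with a median log2 ratio of -7.59. Of the 18 genes listed, 10 had 0 reads in resting cells. Genes such as Il9 and Il6 passed the 50 CPM minimum only through the stimulated cells, so the minimum in part sets the count of lower genes. The summed level of the list was 298 CPM in resting cells and 5210 to 89942 CPM by stimulated group, so folds against all stimulated cells depend on the groups. Il2 was higher, at a log2 ratio of 2.92, and stood at -0.81 without IL13 replicate 2. Il9 had 0 reads against 14207 CPM over all stimulated cells, at least 10308-fold lower, but stimulated groups ran from 0.374 CPM (IL13, 30 min) to 60451 CPM (IL5, activated). Il6 was at least 927-fold lower, with groups from 15.5 to 3217 CPM. For Il13 the log2 ratio was -11.25 from 1 read (-16.56 to -8.77), with groups from 4.16 CPM (IL13, silent) to 2144 CPM. For the chemokine gene Ccl1 it was -12.23, also from 1 read (-17.54 to -9.75), with groups from 789 to 7092 CPM. Csf2 had a log2 ratio of -8.63, and -11.98 without IL5 replicate 3. Il4, at 74.0 CPM against 137 CPM, had a log2 ratio of -0.89, and -2.75 without IL5 replicate 5.

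Of 13 immediate early and NF-κB response genes, 9 were at least 4-fold lower in resting cells (13.2% over all genes) and 0 higher (14.8%). Of the 26 genes listed, 12 had 0 reads in resting cells. Such genes could pass the 50 CPM minimum only through the stimulated cells, so the minimum in part sets the count of lower genes. The whole list stood at 648 CPM in resting cells and at 1999 to 9056 CPM by stimulated group. Gadd45b, a stress sensor gene, had 0 reads in the 10 cells against 2089 CPM, at least 1516-fold lower. Nfkbia, which encodes the NF-κB inhibitor IκBα, stood at 178 CPM against 1758 CPM, with 6 resting cells holding reads. Tnfaip3 and Irf4 had 0 reads. Ier2, an immediate early gene, stood at 142 CPM against 157 CPM. The protease gene Furin, which the size rule also names, had 3 reads, all in IL13 replicate 2, against 415 CPM. Of 12 genes of the IL-2 receptor and its response, 3 were 4-fold lower (13.2% over all genes) and 0 higher, and against stimulated cells of the same title dates 4 were lower and 2 higher. The 3 were Il2ra (299 CPM against 1531 CPM), Lta (0 reads) and Stat5a, a signal transducer of the receptor (0 reads, at least 130-fold lower). Lta and Stat5a passed the 50 CPM minimum only through the stimulated cells. Il2rg differed little, at 1252 and 1327 CPM. Tph1, the rate-limiting enzyme of serotonin synthesis, had 0 reads against 1465 CPM, at least 1063-fold lower, with stimulated groups from 0 to 3369 CPM.

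The genes higher in resting cells were of several kinds, and 71 met the rule for naming, against 88 lower. The 6 largest were Zbtb38, a zinc finger repressor of methylated DNA, Enpp5, Tmem273, Arhgap18, Dennd1c and Ccr2. Zbtb38 stood at 126 CPM in resting and 5.27 CPM in stimulated cells, a log2 ratio of 4.58 (4.29 to 4.87), with 89, 81 and 81 reads in 3 resting cells and at most 13 in the others. Ccr2, a chemokine receptor of migrating leukocytes, was read in 9 of 10 resting cells, from 1 to 196 reads, and in 12.7% of stimulated cells. Its level was 302 against 16.3 CPM, a log2 ratio of 4.21 (4.04 to 4.38), which was 6.70 within the IL5 and 3.32 within the IL13 cells. The other 4 had log2 ratios of 4.30 to 4.56, of which Arhgap18 stood at 3.52 without IL5 replicate 2. That their direction holds without any 1 resting cell was part of the rule that chose them.

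Among the fixed lists, 4 of 7 quiescence genes were at least 4-fold higher in resting cells (14.8% over all genes) and 0 lower, with a median log2 ratio of 2.06. The summed level of the whole list was 1428 CPM in resting and 1087 CPM in all stimulated cells, with stimulated groups from 435 to 1837 CPM, a range that holds the resting value. The list as a whole is therefore not called higher, and genes such as Cdkn1b and Rb1 passed the 50 CPM minimum only through the resting cells. The 4 genes were Cdkn1b, which encodes the cyclin-dependent kinase inhibitor p27 (79.0 CPM against 0.416 CPM), Klf3, Rb1, the retinoblastoma gene (137 CPM against 21.2 CPM), and Txnip (210 CPM against 50.5 CPM). Cdkn1b was read in 5 cells, with 79 reads in IL5 replicate 4, 57 in IL5 replicate 5 and 29 in IL13 replicate 5. Without IL5 replicate 4 its log2 ratio of 7.57 was 6.89. Klf3 had a log2 ratio of 2.89, with 6.15 within IL5 cells and 0.28 within IL13 cells, and 1.98 without IL5 replicate 4, which is under 4-fold. Rb1 had 2.70, and 1.79 without IL13 replicate 2, also under 4-fold. Txnip, at 2.06, is under 4-fold with TMM or DESeq2 factors. Of 14 identity genes, 3 were 4-fold higher in resting cells, Klf6 and Ptprc among them, and 1 lower (Rora), which is near the shares of 14.8% and 13.2% over all genes, so the counts are no result about the list. Klf6 stood at 281 against 52.0 CPM, a log2 ratio of 2.43 (2.29 to 2.57). Rora stood at 146 against 895 CPM, a log2 ratio of -2.62 (-2.78 to -2.46), which was -3.24 without IL5 replicate 4, and was below the lowest stimulated group (546 CPM).

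Of 7 genes of the S100 and annexin list with enough reads, 0 differed 4-fold, beside 14.8% higher and 13.2% lower over all genes, from which nothing is read for so short a list. Their log2 ratios ran from 0.53 (Anxa6) to 1.60 (S100a6), with a median of 1.35 against 0.21 over all genes. S100a6 stood at 3487 against 1150 CPM, with a lowest resting cell of 912, a median of 2864 and a highest of 8491 CPM, and S100a10 stood at 2110 against 748 CPM. S100a11 had a log2 ratio of 1.27. Vim, the vimentin gene, had a log2 ratio of 2.51. Alox5, which encodes 5-lipoxygenase of leukotriene synthesis, was read in 9 resting cells at 408 CPM against 33.2 CPM, with 606 CPM in the IL5 and 159 CPM in the IL13 resting cells. It passed the 50 CPM minimum only through the resting cells. It was the 1 higher gene of 8 on the lipid mediator list (14.8% over all genes), of which 4 were at least 4-fold lower (13.2%), with a median log2 ratio of -1.43. Without IL13 replicate 1 the counts were 2 higher and 3 lower. Of the most abundant genes, Cd52 (4378 against 12924 CPM) and Fth1 (6836 against 11812 CPM) were lower in resting cells, with log2 ratios of -1.56 and -0.79. The 81 ribosomal protein genes with enough reads had a median log2 ratio of 0.26, which lies within the shift between scalings, so no direction is given for them.

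The counts of the cell cycle lists rested on 1 cell. With all 10 cells, 8 of 11 G2/M genes and 3 of 7 S phase genes were at least 4-fold higher in resting than in stimulated cells (14.8% over all genes) and 0 lower. Without IL13 replicate 1, 1 of 5 G2/M genes was higher and 1 lower, and 0 of 4 S phase genes differed 4-fold in either direction. For the other lists, each count without this cell differed by at most 1 gene from that with it.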

How the data were processed

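Single-cell 3' libraries (SMART-Seq v4 3' DE, Nextera XT) were made and sequenced by the authors, who aligned reads to the mouse genome with TopHat and counted them per gene with HTSeq; the deposited values are raw read counts of 46078 gene identifiers per cell, without molecular identifiers. The submitters' processing notes name mm10 and TopHat2. The annotation release and strand setting are not given in the sources used here. The 5 HTSeq summary entries stayed out of library sizes. Of the tallied alignments of resting cells 61.8% lay in genes. GENCODE vM21 named 45229 identifiers, and the other 849 held 0.0619% of resting reads.

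For each group the reads of its cells were added up and divided by total gene reads (133373 to 306589 per resting cell). Exact 95% Poisson intervals were given for levels and Clopper-Pearson intervals for ratios. A group under 3 reads was set to a floor of 3 reads over the group. The log2 ratios of Il13 and Ccl1 against stimulated cells, each from 1 read, are given without this floor. A gene entered a comparison with at least 50 CPM in either group and was counted at 4-fold or more. Spread is the SD of log2(CPM + 1). Cells were thinned to 100000 reads where genes were counted. No doublet caller was run; cells were picked singly by capillary per the methods, and whether a library holds more than 1 cell was not tested. Ratios were checked on simulated counts with counting error only. These had no spread between cells, so the check does not show how ratios or intervals behave under that spread. Python 3.11.15, numpy 2.4.6, scipy 1.17.1, pandas 2.3.3, R 4.3.3, edgeR 4.0.16 and DESeq2 1.42.0 were used, the last pair for scaling factors only.

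Named genes were the 20 most abundant, the 10 of smallest and of largest spread, the 5 best read of those with 90% of their reads in 1 cell, up to 6 each way between indexes with all 5 cells above the other 5, up to 6 each way against stimulated cells with a read in 70% of cells of the higher group and 1 direction in both indexes and without any 1 resting cell, and the genes of 23 lists. The cells, the gene lists and the comparisons were chosen with earlier results of these data known. Alternatives were other minimum levels, pseudocounts, scalings, thinning depths and leaving out each cell. The comparisons at 5 reads in every cell, without IL13 replicate 1 for the lists and with stimulated cells of the same title dates were added after seeing the data. Some genes of the lists and of the naming rule are not reported here.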

Additional observations from a re-analysis of the deposited data

Results flagged for a closer look

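Over 29 measures, 50 groups of 5 cells of 1 index were searched for a cell far from the others, which was found in 9. Chance alone marks about 1 in 20 groups of continuous values, but where the other 4 cells are at 0 any cell with a read is marked, so this rate does not hold for sparse lists. In IL13 replicate 1, the summed S phase genes stood at 6216 CPM (0 to 986 in the other IL13 cells), the G2/M genes at 25852 CPM (71.1 to 895) and the erythroid genes at 97.5 CPM (0 to 11.9). In IL13 replicate 2 the cytokine list stood at 1777 CPM (0 to 175), of which Il2 and Calca made up the most. IL13 replicate 5 was low in the lipid mediator list, at 388.9 CPM (668 to 715). In IL5 replicate 3 the S phase genes stood at 1156 CPM (82.5 to 294), with Tyms as the best read, and the mast cell and basophil list at 169.9 CPM, from Fcer1a, with 0 in the other IL5 cells. IL5 replicate 4 held erythroid genes at 133 CPM, and IL5 replicate 2 held 1 read of a Y-linked gene (3.26 CPM), with 0 of either in the other IL5 cells.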

How the results depend on the processing

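No paired analysis was possible because no test was made and replicate numbers were given in accession order only. Of 46 values under other settings 18 moved beyond the spread or 1.5 times, and of 90 values without 1 cell 4 did, all of them the correlation between indexes (0.056 to 0.130 without 1 cell, 0.555 at a minimum of 200 CPM). Genes read in every cell numbered 206 at 5 reads. The median SD over cells was 2.20 with a pseudocount of 10, 3.09 and 3.49 at minimum levels of 10 and 200 CPM, and 3.59 with DESeq2 factors. Genes per IL5 cell were 2591 without thinning and 1780 at 5 reads. With no minimum level, 1719 and 1825 genes were 4-fold higher in IL5 and IL13 cells, and 2929 and 2648 were higher and lower in resting than in stimulated cells. At 200 CPM these numbered 190, 140, 81 and 83. Genes with no overlap of cells numbered 2 (IL5) and 3 (IL13) at 5 reads. The cause of these shifts was not tested. At 50 CPM the median resting cell is expected to hold about 10.8 reads.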
